A study of Mus musculus with 4 samples.

Results

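Solute carriers are the membrane proteins that move nutrients, ions, metals, vitamins and transmitters across the plasma membrane and the membranes of organelles. They were taken here by gene symbol, as every spot with a single annotated symbol of the form Slc, a family number, the letter a and a member number, with the astrocyte glutamate transporter Slc1a3 left out. The rule gave 178 genes on 243 spots, of 10698 named genes and 16281 spots. Of the 178 genes, 177 were measured on 1 array or more, and 144 on all 4. Slc7a15, an amino acid transporter relative, had no ratio on any array. The symbol also took in 4 entries that name no carrier, namely Slc4a1ap and Slc9a3r2, which encode proteins that bind a carrier, the opposite-strand transcript Slc6a19os and the pseudogene Slc39a1-ps. These 4 are kept in the counts of carriers below, except in the classes. Of the 144 genes measured on all 4 arrays, 141 name a carrier. Apart from the 4 entries, the genes fell into 34 substrate classes by their family number.

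RNA came from the CA1 field of the hippocampus of young male C57BL/6J mice. MK C+S mice received MK-801, a blocker of the NMDA type of glutamate receptor, 1 h before contextual fear conditioning, in which they spent 2 min in an unfamiliar chamber and then received a 0.5 mA shock lasting 1 s, 3 times over. MK mice received MK-801 alone, and their RNA was taken at the matching time. Both groups carried the drug, at a labelled dose of 300 micrograms per g body weight, a value far above usual doses that is printed as labelled. No mice without the drug were part of the comparison, and how many mice each array stands for is not known here. Each of 1, 2, 4 and 6 h after the last shock had 1 array with 2 dyes, MK C+S in red and MK in green every time, so an effect of conditioning and an effect of dye cannot be told apart. Values are log10 ratios of MK C+S over MK, centred on each array. The base is assumed, and the direction is likely rather than stated, from the usual order of red over green. A value of 0.301 is a difference of 2-fold. In whole tissue, fewer cells of a type and less RNA per cell cannot be told apart.

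In the hippocampus, carriers serve several cell types. Neurons and astrocytes clear glutamate, GABA and glycine with sodium-driven carriers, and vesicular carriers refill synaptic vesicles. Endothelial cells and astrocytes pass glucose, lactate and amino acids to neurons, and the chloride, bicarbonate, proton and calcium exchangers set the ionic conditions in which receptors work. Carriers of the inner mitochondrial membrane exchange ADP, phosphate and metabolites. Several transporters best known in CA1 are not analysed here, among them the GABA transporter Slc6a11, the vesicular glutamate transporters Slc17a6 and Slc17a7, the potassium-chloride exporter Slc12a5, the exchangers Slc8a2 and Slc24a2, and the glutamine transporter Slc38a2.

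No array had a replicate, and a ratio at 1 time has no error of its own. The median of the measured carriers was close to 0 at each time, at 0.0036 for 155 genes at 1 h, -0.0071 for 168 at 2 h, 0.0077 for 169 at 4 h and -0.00038 for 170 at 6 h. Past 2-fold lay 11 carriers at 1 h, or 7.1%, against 8.47% of all genes measured there. At 2 h 13 passed 2-fold, or 7.74%, against 6.58% of all genes. At 4 h 16 did so, or 9.47%, against 7.07%. At 6 h the number was 37, or 21.8%, against 21.9%. The shares of carriers were thus near the background at every time. Over the 4 times 58 carriers passed 2-fold somewhere, 42 of them on 1 array alone and 0 on all 4, and 24 of the 58 passed at 6 h and at no earlier time.

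**Figure D1:**
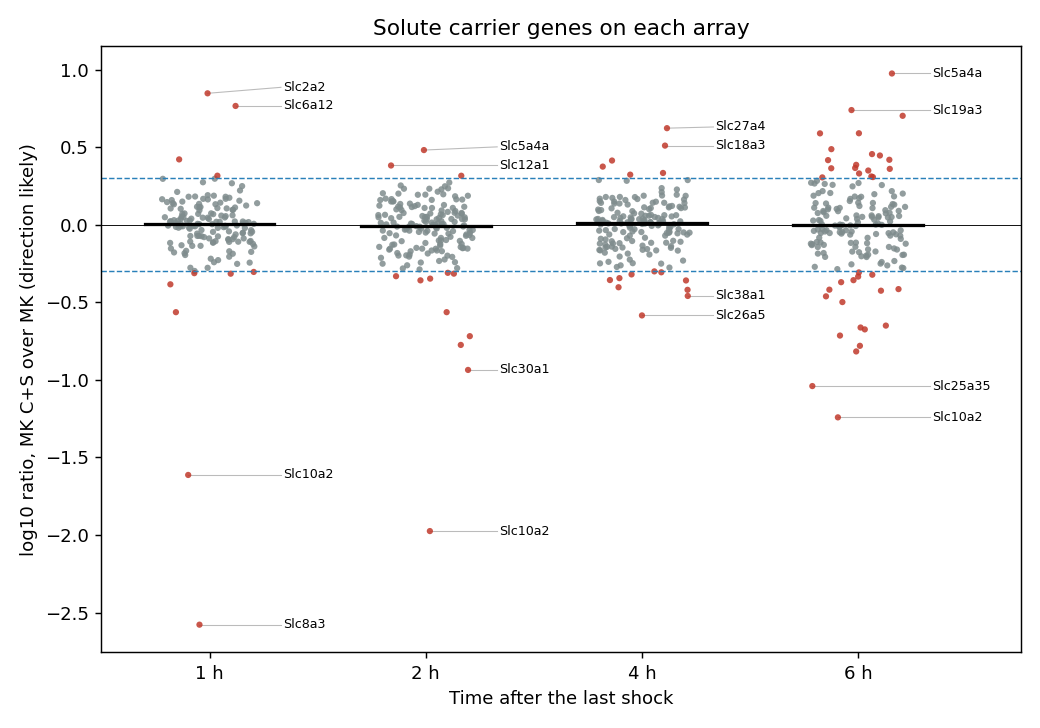
Centred log10 ratio (vertical axis) of each solute carrier gene on the array of each time after the last shock (horizontal axis). Each point is 1 gene, red where it lies past 2-fold (dashed lines at 0.301 and -0.301), the black bar is the median of the carriers, and the 2 highest and 2 lowest genes of each array are named. The medians lie near 0 at all times, 37 genes lie past 2-fold at 6 h, and the lowest values belong to Slc8a3 and Slc10a2.

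The larger ratios were also counted by direction. At 1 h 4 of 155 carriers were past 2-fold with a positive ratio and 7 with a negative one, against 5.12% and 3.35% of all genes. At 2 h the numbers were 3 and 10 of 168, against 2.44% and 4.14% of all genes. At 4 h they were 6 and 10 of 169, against 2.49% and 4.58%. At 6 h 19 of 170 were positive and 18 negative, against 10.2% and 11.7%. After subtraction of a running median along the spot numbers, the split at 1 h was 6 positive and 5 negative and at 6 h 13 and 19. These splits rest on few genes. For ratios of any size, 51.6%, 48.8%, 54.4% and 50% of carriers were positive at 1, 2, 4 and 6 h. The shares over all measured genes were 50.4%, 49.7%, 49.8% and 48.6%.

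The mean over the 4 times asked which carriers were displaced in MK C+S relative to MK across all arrays, and its error was the spread from time to time. By limma's moderated test, 0 of the 144 carriers with a value on all arrays passed an adjusted p of 0.05, and 0% of all 8553 genes did. The lowest adjusted p among carriers was 0.416. Without adjustment 22 carriers had a p under 0.05, or 15.3%, against 11.4% of all genes, with 7 positive and 15 negative, against 4.26% and 7.12% of all genes. The ratio kept 1 sign on all 4 arrays in 40 of 144 carriers, or 27.8%, against 21.8% of all genes. Of these, 23 were positive throughout (16%, against 10.1% of all genes) and 17 negative (11.8% in both). Past 2-fold on 1 array or more lay 41 of the 144, or 28.5%, against 29.3% of all genes, and on 3 arrays in 1 direction 2, Slc10a2 and Slc30a1, or 1.39%, against 1.06%. The names below are therefore the ends of a distribution in which no carrier passed the test.

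**Figure D2:**
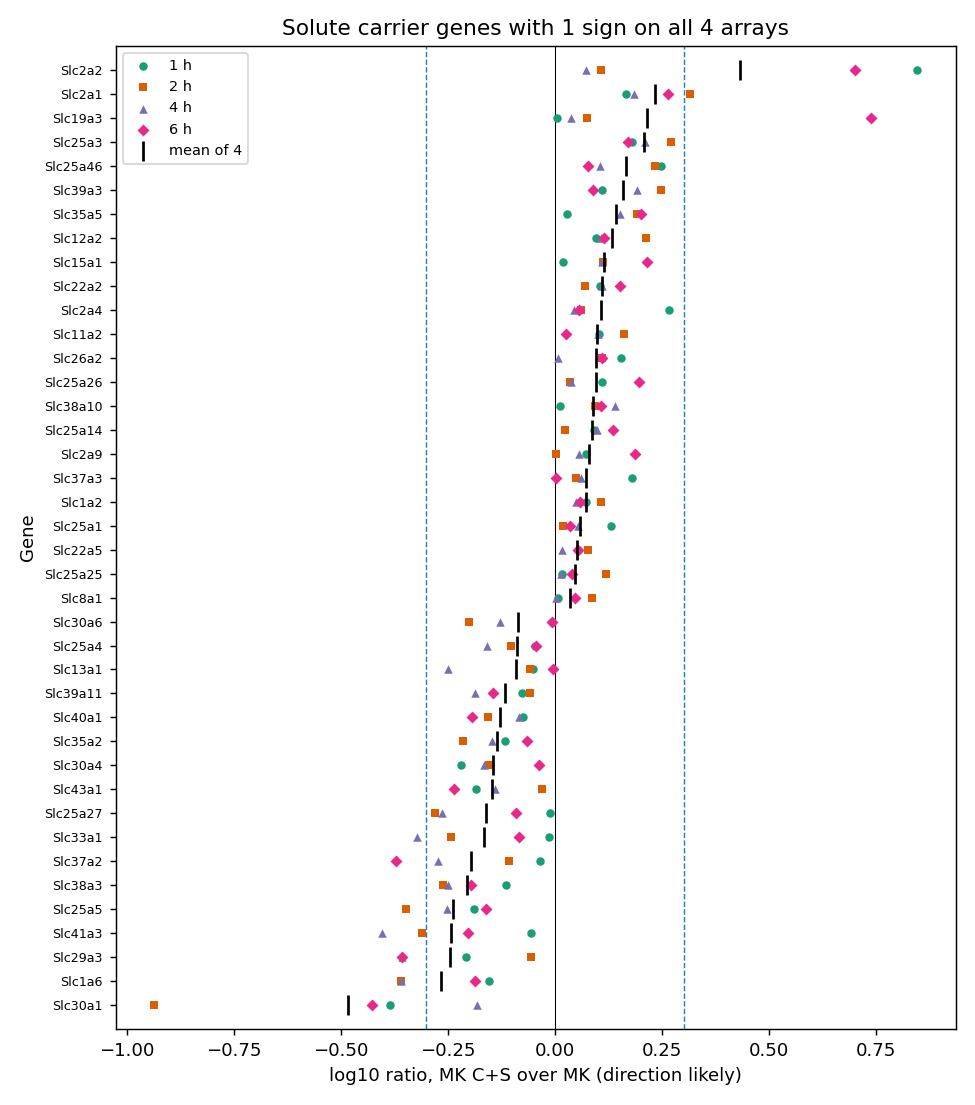
Log10 ratios (horizontal axis) of the 40 solute carrier genes (vertical axis, ordered by mean) whose ratio had 1 sign on all 4 arrays, with a symbol for each time and a bar for the mean of 4. Dashed lines mark 2-fold. Slc2a2 has the highest mean and Slc30a1 the lowest. Slc19a3 owes most of its mean to the 6 h array, and Slc30a1 to 1 of its spots.

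Glucose transporters held the highest means. Slc2a2, a low-affinity glucose transporter best known from liver and pancreatic beta cells, had log ratios of 0.85, 0.11, 0.073 and 0.70 at 1, 2, 4 and 6 h. Its 1 h value, a 7.02-fold ratio, was the highest of any carrier at that time, and its values at 2 and 4 h lay well inside 2-fold. The mean was 0.43 (SD 0.40 between times, n = 4 arrays), with an unadjusted limma p of 0.021 and an adjusted p of 0.427. Slc2a1, the glucose transporter of the blood-brain barrier and of astrocytes, was the steadier of the pair, at 0.17, 0.32, 0.19 and 0.27. Its mean of 0.23 (SD 0.069, n = 4 arrays) had the lowest unadjusted limma p of any carrier, 0.0035, which adjusted to 0.416. Both genes rested on 1 spot.

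In the mean over times, markers of endothelial and mural cells, where Slc2a1 is abundant, lay mostly on the other side of 0. Of 13 measured, 11 had a negative mean, against 4611 of 8553 genes. Their median was -0.10, and Cldn5, a tight junction gene, was lowest at -0.35. At 6 h 6 of the 13 were positive, with Pdgfrb highest at 0.73, and the median was -0.038. The part of these cells in the Slc2a1 value was not tested. Slc2a3, the main glucose transporter of neurons, gave 0.21, -0.053, 0.036 and -0.78. Its 1 h value came from 1 spot alone and its 4 h value from the other alone. At 6 h its spots lay apart, at -0.25 and -1.31, and without the 6 h array its mean turned from -0.15 to 0.065. The insulin-responsive Slc2a4 was positive on all arrays, at 0.27, 0.062, 0.044 and 0.056, and the urate transporter Slc2a9 as well, at 0.073, 0.0037, 0.057 and 0.19. The fructose transporter Slc2a5 and the intracellular Slc2a8 had means of -0.019 and -0.041. As a class, 7 of 7 hexose transporters were positive at 1 h with a median of 0.17, where 50.4% of all genes were positive. At 2 h 5 of 7 were positive, at 4 h 7 of 7 with a median of 0.048, and at 6 h 4 of 7. These counts are of genes, and the 2 spots of Slc2a8 had opposite signs at 1 h (-0.11 and 0.12) and at 4 h (0.22 and -0.12).

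Lactate and other monocarboxylates pass between astrocytes and neurons through the Slc16 family. Slc16a1, found on endothelium and glia, gave -0.25, -0.22, 0.17 and -0.0021, and Slc16a7, the high-affinity carrier of neurons, -0.012, -0.072, 0.061 and -0.27. Slc16a3, which exports lactate from glycolytic cells such as astrocytes, was at 0.021, -0.29, -0.14 and -0.20 (mean -0.15, unadjusted limma p 0.053). No gene of the 3 passed 2-fold. The class had 5 of 6 negative at 2 h, 5 of 7 positive at 4 h and 5 of 7 negative at 6 h. Of all genes, 49.7%, 49.8% and 48.6% were positive at these times. Past 2-fold at 6 h lay Slc16a10, an aromatic amino acid and thyroid hormone carrier, at 0.37, and Slc16a11 at -0.46. Emb, a membrane partner that takes monocarboxylate carriers to the cell surface, was at -0.17, -0.34, -0.65 and -0.91 on 1 spot, and Bsg, the other such partner, at -0.083, -0.091, -0.0057 and 0.30.

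Glutamate carriers of the Slc1 family gave small ratios apart from 1 gene. Slc1a2, the astrocyte transporter that clears most synaptic glutamate, was positive on all 4 arrays, at 0.073, 0.11, 0.049 and 0.060. These values came from 3 spots that lay far apart: 1 spot had a mean of 0.24, another of 0.10 and the third of -0.13. Of 10 measured astrocyte markers, 7 had a positive mean, against 3942 of 8553 genes, with a median of 0.034. Slc1a1, the transporter of neurons, was at -0.12, 0.19, 0.18 and 0.088, and the neutral amino acid carrier Slc1a4 at -0.11, -0.040, -0.054 and 0.27. Slc1a6, a glutamate transporter best known from Purkinje cells of the cerebellum, was negative throughout at -0.15, -0.36, -0.36 and -0.19. Its mean was -0.26 (SD 0.11, n = 4 arrays, unadjusted limma p 0.0036, adjusted p 0.416). Both of its spots were negative wherever they gave a ratio, between -0.20 and -0.11 in one and between -0.57 and -0.27 in the other. Slc1a5, a glutamine and neutral amino acid carrier, was positive at 1, 2 and 4 h (0.11, 0.15 and 0.094) and at -0.65 at 6 h.

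Among the sodium-driven transmitter carriers of the Slc6 family, Slc6a12, which carries betaine and GABA, stood at 0.77 at 1 h, a 5.82-fold ratio, and at -0.23, -0.053 and -0.044 later. The 1 h value came from 1 spot, since its other spot gave no ratio there and -0.64, -0.24 and -0.073 afterwards, while the first gave 0.18, 0.13 and -0.015. The noradrenaline transporter Slc6a2 was at 0.10, -0.56, -0.28 and -0.32, with a mean of -0.26 (unadjusted limma p 0.042) that was -0.16 without the 2 h array. Its arrays did not share spots: the 1 h value came from a spot with no ratio at 2 and 4 h, which gave -1.14 at 6 h, where the other spots gave 0.0039 and 0.16. At 2 h both of its measured spots were past 2-fold in the negative direction, at -0.65 and -0.48. Among 53 carriers with several measured spots at 2 h, all spots passed 2-fold the same way in this 1 alone. Over all genes 12 of 2437 did so. Neither of these 2 Slc6a2 spots had a ratio at 1 h. The taurine transporter Slc6a6 had no ratio at 1 h and gave -0.72, -0.42 and -0.26 on 1 spot. The glycine transporter Slc6a9 was at -0.073, 0.15, 0.11 and 0.18, the serotonin transporter Slc6a4 within 0.08 of 0 at all times, and the dopamine transporter Slc6a3 at -0.11, -0.14, 0.0070 and 0.49. Slc6a20b, an imino acid carrier, was at 0.047, 0.17 and 0.043 and then -0.71. The class had 6 of 8 negative at 6 h, where 48.6% of all genes were positive.

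Vesicular carriers were few. Slc32a1, which loads GABA and glycine into vesicles of inhibitory neurons, was at -0.20, 0.0093, 0.037 and -0.049, and its 2 spots had the same sign at 1, 4 and 6 h. At 1 h 7 of 8 inhibitory neuron markers were also negative, with a median of -0.090, where 50.4% of all genes were positive. At 2 h 6 of 8 were positive, with a median of 0.092, against 49.7% of all genes. The part of inhibitory neurons in the Slc32a1 values was not tested. Slc18a3, the vesicular acetylcholine transporter, had a ratio at 1 and 4 h, of -0.11 and 0.51, and was the second highest carrier at 4 h. Slc5a7, which takes choline back into cholinergic terminals, had no ratio at 1 h and gave -0.10, 0.14 and 0.59, with both spots positive at 6 h (0.88 and 0.30). Slc17a1, a phosphate and organic anion carrier of the same family as the vesicular glutamate transporters, was at -0.18, -0.21 and -0.82 at 1, 4 and 6 h.

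Amino acid carriers of the Slc3, Slc7, Slc38 and Slc43 families lay on both sides of 0. Positive were 9 of 15 at 1 h, 7 of 18 at 2 h, 6 of 18 at 4 h and 8 of 17 at 6 h. The shares over all genes were 50.4%, 49.7%, 49.8% and 48.6%. The class median was lowest at 4 h, at -0.063. Slc38a3, the glutamine carrier of astrocytes, was negative throughout at -0.11, -0.26, -0.25 and -0.20 (mean -0.21, SD 0.067, n = 4 arrays, unadjusted limma p 0.0065, adjusted p 0.416). Its 2 spots lay apart. Spot 4434 gave no ratio at 1 h and -0.71, -0.44 and -0.27 later, with a mean of -0.47. Spot 9689 gave -0.11, 0.19, -0.059 and -0.12, with a mean of -0.027. The gene mean thus rests largely on spot 4434. Slc38a1, the glutamine carrier of neurons, was at 0.14, -0.038, -0.46 and -0.072. The heavy chain Slc3a2 and its light chain Slc7a5, which together carry large neutral amino acids, did not run in parallel, at -0.021, 0.23, -0.16 and 0.28 for Slc3a2 and 0.045, 0.11, -0.071 and -0.029 for Slc7a5. For Slc3a2 the 2 spots agreed to within 0.1 at every time. Slc7a11, the cystine-glutamate exchanger of astrocytes, was at -0.011, -0.15, -0.12 and 0.35. Its 1 h value came from 1 spot alone, and its 4 and 6 h values from the other alone. Slc7a10, which carries small amino acids such as D-serine, was at -0.32, -0.15, 0.012 and 0.0081.

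**Figure D3:**
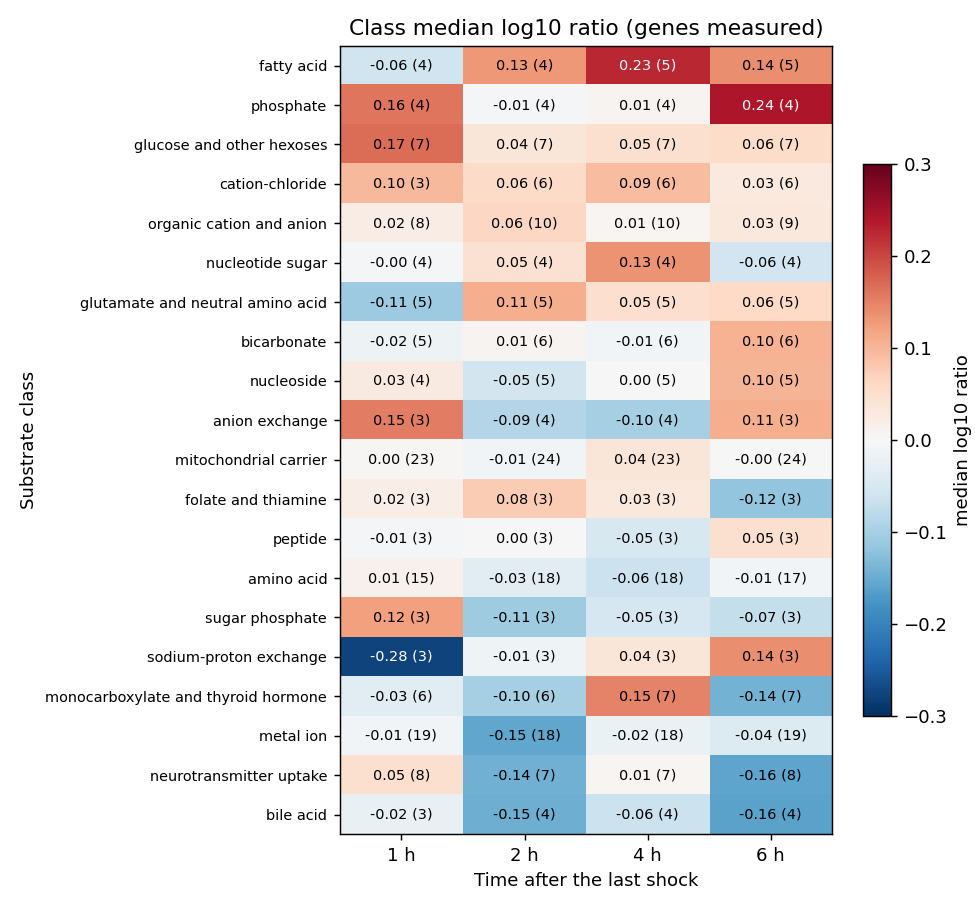
Median log10 ratio (colour and printed value) of each substrate class (rows) on the array of each time (columns), with the number of genes measured in brackets, for classes with at least 3 measured genes at all times. Mitochondrial carriers, the largest class, stay near 0, the hexose median is positive at all times, and sodium-proton exchangers have the lowest median, -0.28 at 1 h.

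Ion exchangers set chloride, bicarbonate, protons and calcium. Slc12a2, the sodium-potassium-chloride importer of young neurons, glia and choroid plexus, was positive on all arrays at 0.096, 0.21, 0.11 and 0.11, with a mean of 0.13 (SD 0.054, n = 4 arrays, unadjusted limma p 0.036, adjusted p 0.432). Slc12a1, its kidney relative, was at 0.42, 0.38, 0.015 and -0.50, and so past 2-fold on both sides of 0. All 6 measured cation-chloride carriers were positive at 4 h, with a median of 0.092, where 49.8% of all genes were positive.

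Of the bicarbonate carriers, Slc4a4 of astrocytes was close to 0 as a gene (0.027, -0.013, 0.022 and 0.093). Its 3 spots lay apart, at 0.041, -0.29 and 0.21 at 2 h. Slc4a10 of neurons and choroid plexus was at -0.12, 0.20, 0.11 and 0.11, with both spots positive at 2 and 6 h. The sodium-calcium exchanger Slc8a1, with 4 spots, stayed between 0.0025 and 0.088 as a gene, while its spots ran between -0.32 and 0.52 at 6 h. Slc8a3, another exchanger of that family in brain, had a ratio at 1 h alone, at -2.58 on 1 spot, the fourth lowest of 9162 genes. No other array or spot gave a second value for Slc8a3. All 3 sodium-proton exchangers were negative at 1 h, with Slc9a3 at -0.56 and Slc9a2 at -0.28, and Slc9a3 was at 0.16, 0.036 and 0.26 later.

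At 1 h 7 of 8 measured markers of the choroid plexus, an epithelium rich in carriers, had positive ratios, against 50.4% of all genes. Of the 8, 6 were past 2-fold with a positive ratio, against 5.12% of all genes. Their median was 0.47, with a range from -0.24 to 0.71. Ttr, the most abundant marker of this epithelium, had no ratio at 1 h and gave -0.66, -1.27 and -0.12 later. Of carriers known there, Slc2a1 was at 0.17 at 1 h, Slc12a2 at 0.096 and the anion exchanger Slc4a2 at -0.016. Slc4a10 was at -0.12 and Slc15a2 at -0.14. These carriers were picked by hand and not from a list set beforehand. The part of choroid plexus RNA in these values was not tested.

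Of the metal carriers, 12 of 18 were negative at 2 h, with a median of -0.15, against 5104 of 10151 genes. At 6 h 6 of 19 were positive, against 48.6% of all genes. Slc30a1, the zinc exporter of the plasma membrane, had the lowest mean of any carrier with 1 sign on all 4 arrays, at -0.38, -0.94, -0.18 and -0.43 (mean -0.48, SD 0.32, unadjusted limma p 0.0055, adjusted p 0.416). A single spot set most of this mean. Spot 15835 gave -0.71, -1.80 and -0.98 at 1, 2 and 6 h and no ratio at 4 h, and the other spot gave -0.060, -0.076, -0.18 and 0.13. Slc30a3, which loads zinc into vesicles of glutamatergic terminals, was at 0.026, -0.25, 0.33 and 0.12, and its 3 spots differed at 2 h, at -0.65, -0.083 and -0.020. Slc30a4, also a zinc carrier, was negative throughout at -0.22, -0.15, -0.17 and -0.037, and the zinc importer Slc39a3 positive at 0.11, 0.25, 0.19 and 0.089 (mean 0.16, unadjusted limma p 0.021). The iron exporter Slc40a1 was at -0.074, -0.16, -0.084 and -0.19. Slc41a3, a magnesium carrier, was at -0.055, -0.31, -0.40 and -0.20 (mean -0.24, unadjusted limma p 0.011).

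Carriers of the Slc25 family, most of them in the inner mitochondrial membrane, formed the largest class and lay around 0. Positive were 12 of 23 at 1 h, 12 of 24 at 2 h, 14 of 23 at 4 h and 12 of 24 at 6 h. The shares over all genes were 50.4%, 49.7%, 49.8% and 48.6%. Slc25a3, which carries phosphate for ATP synthesis, was positive on all arrays within a narrow range, at 0.18, 0.27, 0.21 and 0.17 (mean 0.21, SD 0.045, n = 4 arrays, unadjusted limma p 0.0046, adjusted p 0.416). The ADP/ATP carriers were on the other side. Slc25a5 was at -0.19, -0.35, -0.25 and -0.16 (mean -0.24, SD 0.083, unadjusted limma p 0.0041, adjusted p 0.416), with both spots negative at every time they gave a ratio. Slc25a4, the form of muscle and brain, was at -0.046, -0.10, -0.16 and -0.044. Slc25a46, found in the outer membrane and linked to mitochondrial shape, was at 0.25, 0.23, 0.11 and 0.077. Slc25a27, an uncoupling protein relative of neurons, was at -0.010, -0.28, -0.26 and -0.092. The lowest values of the class belonged to Slc25a35, at -0.24, -0.78 and -1.04 at 1, 2 and 6 h on 1 spot, with no ratio at 4 h.

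Several other carriers had wide ratios, some of them best known outside the brain. The ileal bile acid transporter Slc10a2 was at -1.61, -1.98, 0.12 and -1.24 on spot 15693, with the lowest carrier ratios at 2 and 6 h and a mean of -1.18 (SD 0.91, n = 4 arrays, unadjusted limma p 0.0079, adjusted p 0.416). Slc5a4a, a member of the sodium-glucose cotransporter family, had no ratio at 1 and 4 h and gave 0.48 and 0.97, the highest carrier ratio at both 2 and 6 h. Slc27a4, a fatty acid carrier, was at -0.14, 0.20, 0.62 and 0.20 and was highest at 4 h, a 4.19-fold ratio, where its relative Slc27a5 was at 0.32. The thiamine carrier Slc19a3 was positive throughout, at 0.0054, 0.075, 0.038 and 0.74, and its mean of 0.21 was 0.040 without the 6 h array. Slc52a3, a riboflavin carrier, was within 0.08 of 0 until 4 h and at 0.59 at 6 h, and the ascorbate carrier Slc23a1 was at 0.30, -0.019, 0.010 and 0.36. Slc5a3, which takes up myo-inositol, was at -0.28, -0.042, 0.37 and -0.12. Slc26a5, the motor protein of hair cells, was the lowest carrier at 4 h at -0.59.

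Carriers of organic ions, nucleosides and nucleotide sugars gave smaller values. Slc22a2, an organic cation carrier, was at 0.10, 0.070, 0.11 and 0.15, and 9 of 10 organic ion carriers were positive at 2 h, where 49.7% of all genes were, with a median of 0.063. The lysosomal nucleoside carrier Slc29a3 was negative throughout at -0.21, -0.055, -0.36 and -0.36 (mean -0.24, unadjusted limma p 0.0098), and Slc29a1, the main nucleoside carrier of the plasma membrane, close to 0 at -0.080, -0.047, 0.0017 and 0.11. The acetyl-CoA carrier Slc33a1 was at -0.015, -0.24, -0.32 and -0.084, and Slc37a2, a sugar phosphate carrier, at -0.035, -0.11, -0.27 and -0.37. Slc35a5 of the nucleotide sugar family was positive at 0.029, 0.19, 0.15 and 0.20, and the UDP-galactose carrier Slc35a2 negative at -0.12, -0.21, -0.15 and -0.064. The peptide carrier Slc15a1 was positive at 0.018, 0.11, 0.11 and 0.22. The extruder of organic cations Slc47a1 was at -0.043, 0.0018, -0.34 and -0.31, and the peptide carrier of astrocytes and choroid plexus Slc15a2 at -0.14, -0.13, -0.23 and 0.046. All 4 phosphate carriers of the Slc20 and Slc34 families were positive at 6 h, where 48.6% of all genes were, with a median of 0.24.

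The slope of the log ratio on hours asked whether a carrier drifted with time after conditioning. By limma 0 of 144 carriers passed an adjusted p of 0.05, and 0% of all genes did, with 17 carriers (11.8%) at an unadjusted p under 0.05, against 14.6% of all genes. Of the 17, 8 had a positive slope and 9 a negative one, against 4.64% and 9.97% of all genes. The most negative slopes by moderated t were those of Slc12a1 (-0.19 per h, adjusted limma p 0.113), the pseudogene Slc39a1-ps (-0.16 per h, adjusted limma p 0.131), Slc2a3 (-0.17 per h) and the nucleoside carrier Slc29a2 (-0.11 per h). The most positive were those of the urea carrier Slc14a1 (0.13 per h, adjusted limma p 0.150), the phosphate carrier Slc34a2 (0.13 per h), Slc6a3 (0.12 per h) and Slc66a2 (0.11 per h). Slc14a1 ran through -0.30, 0.043, 0.17 and 0.42 at 1, 2, 4 and 6 h and Slc34a2 through -0.31, -0.0098, 0.24 and 0.36. The Slc39a1-ps values were 0.15, 0.082, -0.14 and -0.66, those of Slc29a2 were 0.13, 0.19, 0.019 and -0.42, and those of Slc66a2 were 0.021, -0.12, 0.41 and 0.45. For Slc66a2 the 1 h value came from 1 spot alone and the 2 h value from the other alone. The same held for Slc2a3 at 1 and 4 h, so a change of spot enters both slopes. Past 2-fold on both sides of 0 lay 3 carriers, Slc12a1, Slc14a1 and Slc34a2, or 2.08%, against 2.37% of all genes with a value on all arrays. Without the 4 h array 8 genes of the rule passed, 1 of them a pseudogene, where 418 of 8628 genes passed. The 8 were Slc12a1, Slc19a3, Slc1a5, Slc25a10, Slc2a3, Slc39a1-ps, Slc52a3 and Slc6a20b.

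A run of spot numbers in which ratios were wide held 4 spots of carriers, numbered 15693 to 15835. In this run 7.37% of measured spots had a log ratio of -1 or lower at 1 h, against 0.178% of the other spots, 5.96% against 0.179% at 2 h, 3.15% against 0.168% at 4 h and 9.27% against 0.875% at 6 h. At 6 h 114 of its 248 spots were past 2-fold, against 25.1% of the others. The carriers there were Slc10a2 (15693), Slc12a1 (15719), the dicarboxylate carrier Slc25a10 (15753, at -0.68 at 6 h) and the low spot of Slc30a1 (15835). With these spot numbers left out, Slc10a2 had no value and the Slc30a1 mean was -0.048. The carriers past 2-fold were then 8, 10, 16 and 33 at 1, 2, 4 and 6 h. Spot position and gene cannot be told apart for Slc10a2, Slc12a1 and Slc25a10, which had 1 spot each.

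**Figure D4:**
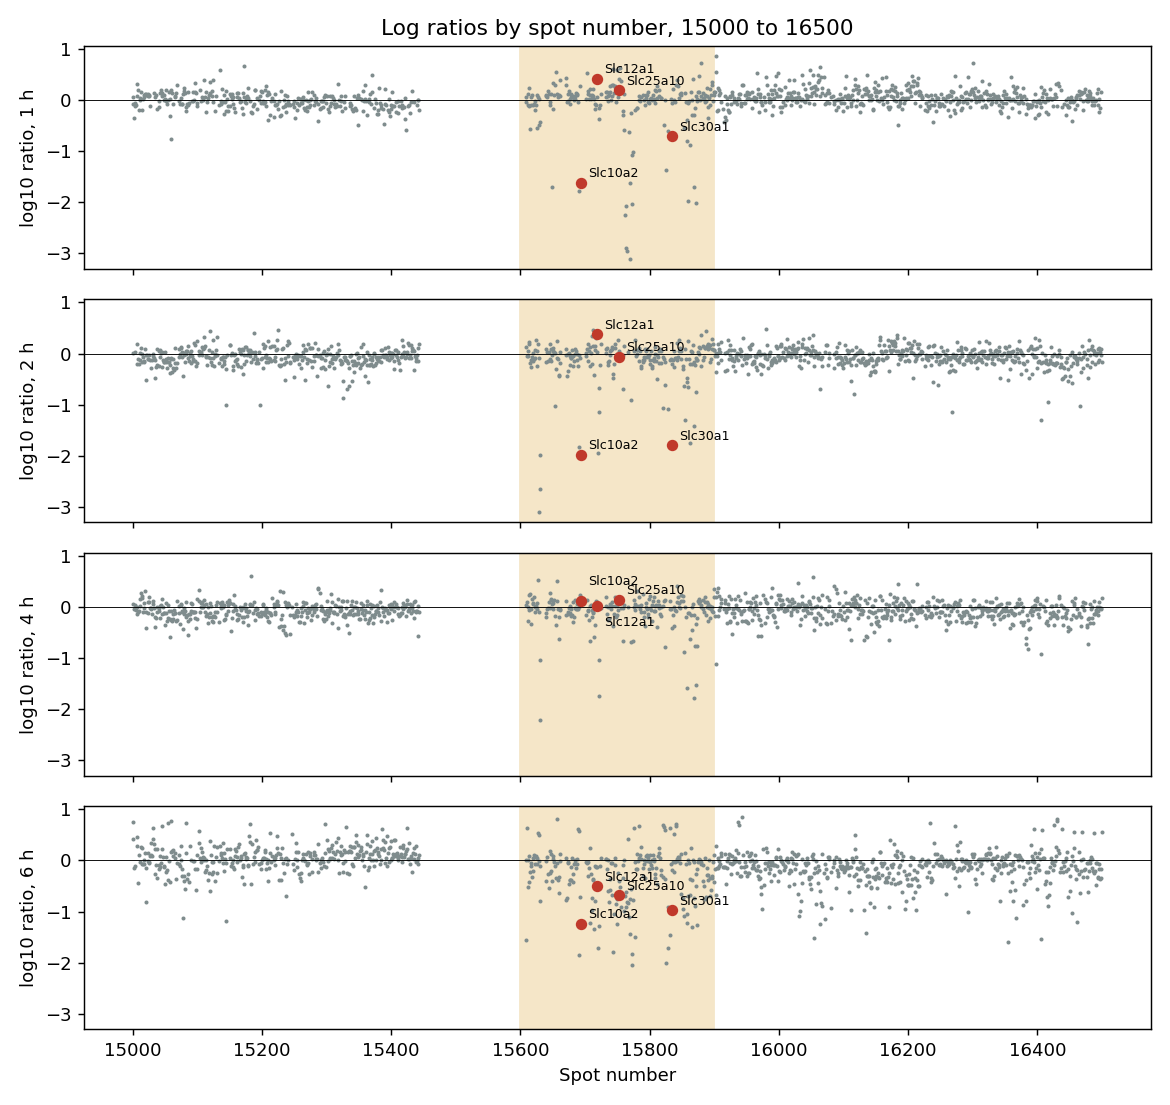
Centred log10 ratio (vertical axis) of each measured spot (horizontal axis, spot number) in and around the run of wide ratios on the arrays of 1, 2, 4 and 6 h, from top to bottom. The shaded range is that run, red points are spots of solute carriers in it, and spots at -1 or lower are far more frequent inside the range than outside it.

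Spots of a gene often disagreed, among carriers and among all genes. Of the carriers with 2 or more measured spots, the spots all had 1 sign in 11 of 30 at 1 h, 20 of 53 at 2 h, 25 of 53 at 4 h and 28 of 53 at 6 h, against 829 of 1629, 1205 of 2437, 1308 of 2512 and 1148 of 2402 of all genes. The pooled SD between spots of a carrier was 0.20, 0.30, 0.17 and 0.30 at 1, 2, 4 and 6 h, against 0.23, 0.20, 0.17 and 0.33 over all genes. All spots passed 2-fold the same way in 0, 1, 0 and 3 carriers at these times, against 14, 12, 13 and 77 of all genes. Since 122 of the 178 carriers had 1 spot, most ratios above have no second measurement, and an SD of this size is larger than most of the means.

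**Figure D5:**
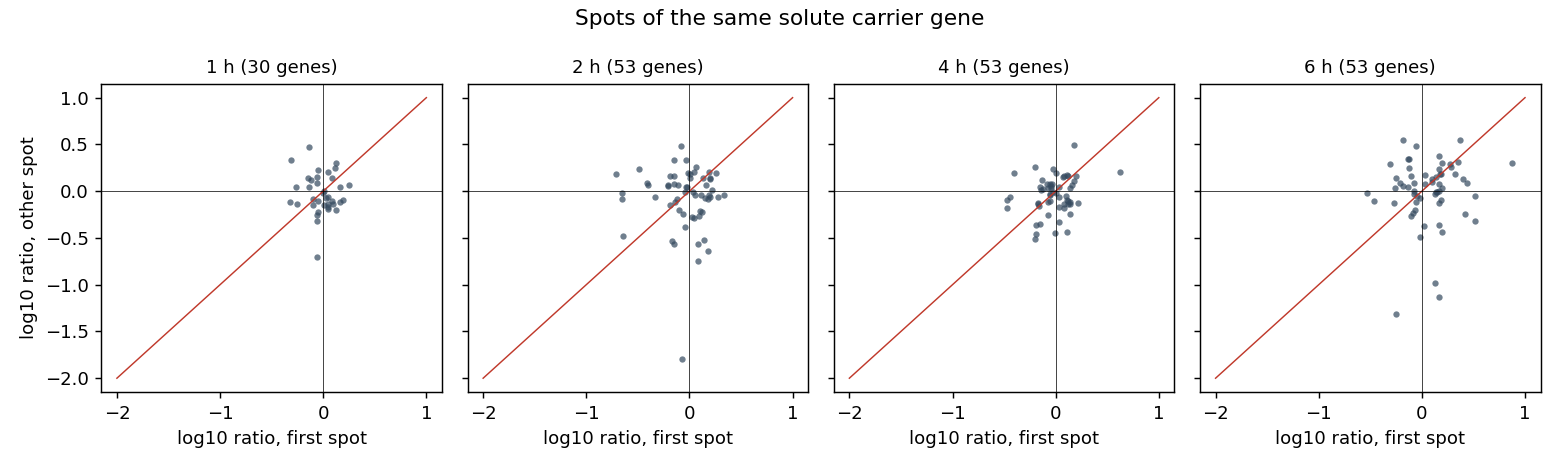
Log10 ratio of the lowest-numbered measured spot of a solute carrier gene (horizontal axis) against each other measured spot of the same gene (vertical axis), for the arrays of 1, 2, 4 and 6 h. The red line marks equal values. Points scatter around 0 in all directions, and the spot pair of Slc30a1 at 2 h lies farthest from the line.

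Whether a spot had a ratio at 1 h also went with its later values. At 2 h 29.8% of the 47 carrier spots without a 1 h ratio were past 2-fold in the negative direction, against 3.89% of the 180 with one. At 6 h the same kind of spots lay on the positive side, with 29.8% past 2-fold, against 10.4%. Among all named spots the shares were 9.57% against 4.09% negative at 2 h, and 925 of 2315 spots against 6.61% positive at 6 h. Spots without a 1 h ratio enter the later values of Slc1a6, Slc2a3, Slc4a4, Slc5a4a, Slc5a7, Slc6a2, Slc6a6, Slc6a12, Slc7a11, Slc15a1, Slc16a10, Slc25a5, Slc27a5, Slc33a1, Slc35a2, Slc38a3 and Slc66a2 given above. With them left out, 8, 11 and 30 carriers were past 2-fold at 2, 4 and 6 h, and at 6 h the split was 11 positive and 19 negative. No intensities were used here, and the part of dim spots was not tested.

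Other transport genes were summarised by their means over times. Among subunits and regulators of the sodium-potassium pump, which maintains the gradient that drives most of these carriers, 5 of 9 had a positive mean with a median of 0.024, and 1 lay past 2-fold, Fxyd6 at -0.35. Vacuolar proton pump subunits, which power vesicular carriers, had 10 of 13 negative ratios at 1 h and again at 2 h. The medians were -0.041 and -0.038. Of all genes, 4548 of 9162 were negative at 1 h and 5104 of 10151 at 2 h. In the mean 8 of 12 of these subunits were negative, against 4611 of 8553 genes, and 0 were past 2-fold. Of the ABC transporters, 9 of 25 had a positive mean with a median of -0.016, and 1 lay past 2-fold, Abcf3 at -0.37. Organic anion transporters of the Slco family had a negative mean in 4 of 6, with Slco1a1 past 2-fold at -0.46. Nucleotide sugar and related carriers of the Slc35b to Slc35g groups had one in 6 of 9, with Slc35b1 at -0.32 and Slc35g3 at 0.34 past 2-fold. Partners and regulators of carriers had a negative mean in 4 of 7, with Emb past 2-fold at -0.52 and the scaffold gene Ezr at 0.23, positive on all arrays. Fxyd6, Abcf3, Slc35b1, Slc35g3, Emb and Ezr had 1 spot each. In the mean over times 1 carrier was past 2-fold with a positive value, Slc2a2, and 2 with a negative one, Slc10a2 and Slc30a1, against 39 and 175 of all 8553 genes. By comparison, the median of the mean over times was 0.0064 for the 144 carriers and -0.0095 for all 8553 genes.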

How the data were processed

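CA1 RNA was compared on 4 arrays, 1 per time, each hybridised with MK C+S RNA in Cyanine-5 and MK RNA in Cyanine-3, per the labels. The authors deposited 1 log ratio per spot, treated here as log10; neither base, direction nor normalization is given in the sources used here. Exact 0, at the deposited median, was taken as not measured, each column was centred on the median of its other spots, and a gene was the mean of its measured spots. Symbols came from the platform annotation, and 178 of 178 matched RefSeq by Entrez number. Depth is not defined for these arrays, whose number limits the precision. The mean over times and the slope on hours were fitted with limma 3.58.1 in R 4.3.3 over 8553 genes with Benjamini-Hochberg adjustment, after a check on simulated data; with 1 array a time, the error is the spread between times. Other work used Python 3.11.15. The members, classes and lists were chosen with earlier results of these data known. Genes were named by rule: 8 highest and 8 lowest means with 1 sign, 5 highest and 5 lowest at each time, 4 steepest slopes each way, wide or opposite ratios, known hippocampal carriers, genes with several spots and class extremes. Slc1a5, Slc2a4, Slc2a5, Slc2a9, Slc16a10, Slc16a11, Slc25a10, Slc25a27, Slc27a5 and Slc40a1 were added after their values were seen. Alternatives changed the fold, log base, centring, spot position, spot summary, zeros, filter, scaling, array weights, moderation and time scale, or left out an array.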

Additional observations from a re-analysis of the deposited data

Results flagged for a closer look

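Slc12a1, Slc14a1 and Slc34a2 were past 2-fold in opposite directions at different times. The highest minus the lowest log10 ratio was 0.9196 for the kidney chloride carrier Slc12a1, which was positive at 1 h and negative at 6 h. It was 0.7229 for the urea carrier Slc14a1 and 0.6724 for the phosphate carrier Slc34a2, both negative at 1 h and positive at 6 h. The differences between single times were not tested, since each time had 1 array.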

How the results depend on the processing

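At 1 h, where 11 carriers were past 2-fold, 36 were past 1.5-fold and 5 past 3-fold, and 2 would be past 2-fold with base-2 logs, 4 with natural logs and 17 with each spot on its own. At 2 h, with 13, these numbers were 46, 6, 1, 4 and 28, and 8 without spots that had no ratio at 1 h. At 4 h, with 16, they were 42 past 1.5-fold, 3 past 3-fold, and 0 with either base, no test being possible at a single time. At 6 h, with 37, they were 74, 15, 2, 8 and 59, and 23 with arrays scaled to one spread. The positive share of 36.4% at 1 h was 0% with base-2 logs, 50% with natural logs and 54.5% with a running median removed. That of 23.1% at 2 h was 39.1% at 1.5-fold and 0% with either base. That of 37.5% at 4 h was 66.7% at 3-fold and 25% with each spot on its own. That of 51.4% at 6 h was 40% at 3-fold, 0% with base-2 logs, 37.5% with natural logs, 40.6% with a running median removed and 36.7% without spots that had no 1 h ratio. Leaving out each array in turn gave 0 to 0 carriers called in the mean and 0 to 8 in the slope, 8 without the 4 h array; the cause was not tested. Of 709 means of 79 named genes under alternatives, 705 moved by less than 1 SD between times. Leaving out 1 of 4 arrays cannot move a mean by that much, so the count says nothing about those settings. Without the 6 h array 2 named means changed sign by less than 1 SD: that of Slc39a1-ps from -0.14 to 0.031 and that of Slc2a3 from -0.15 to 0.065. Settings that left out the run of spots with wide ratios or spots without a 1 h ratio were chosen after seeing the data. No paired analysis was possible because each time had 1 array and the labels give no replicate numbers.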

Other observations

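Spots annotated with several genes, which entered no count, included 2 with a solute carrier. The spot shared by the potassium-chloride cotransporter Slc12a4 and Lcat gave log10 ratios of -0.077, 0.0025, 0.023 and 0.0097 at 1, 2, 4 and 6 h. The spot shared by Slc10a3 and Ubl4a gave 0.094, 0.24 and -0.21 at 1, 2 and 4 h and no ratio at 6 h.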
